A study of Equus caballus with 10 samples.

Results

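The miR-199 and miR-214 miRNAs were followed through 10 small RNA libraries of horse joint cells. The cells had been incubated with extracellular vesicles (EVs) from another joint cell type. The members were chosen by name, as the rows eca-miR-199a-5p, eca-miR-199b-5p, eca-miR-199a-3p, eca-miR-199b-3p and eca-miR-214, which are 5 of the 239 miRNAs in the count table, and all 5 were found. EV-recipient synoviocytes from 4 horses, grown at 25% oxygen, were given a pool of labelled EVs made by chondrocytes of 8 donor horses. EV-recipient chondrocytes from 5 horses, grown at 5% oxygen, were given a pool of labelled EVs made by synoviocytes of 9 donor horses. The label was 5-ethynyl uridine (5-EU), a uridine analogue that donor cells built into new RNA over 48 h. Recipient cells, at passage 2 and without added label of their own, were exposed to the EVs for 24 h, and the labelled RNA was then captured from their total RNA and sequenced. The remaining library is titled as a synoviocyte, and the tables carry the mark SynoviocyteNEG for it. The study's figures give that mark to its control, which had received EVs from chondrocytes grown without the label, but the sample labels give it no such group. Its values are therefore given alone and enter no test.

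A miRNA hairpin can give a mature miRNA from each of its arms, named 5p and 3p. In mammals the hairpins of miR-199a and miR-199b carry closely similar 5p arms, while their 3p arms are the same or nearly so. miR-214 is made together with a copy of miR-199a from a long non-coding transcript, DNM3OS, which in mouse is active in mesenchymal tissues of the embryo, including the developing skeleton. miR-199a-5p and miR-214 are known from fibroblasts and fibrosis in human and mouse, and in mouse miR-214 restrains bone formation by osteoblasts. The entry eca-miR-214 names no arm. Mature sequences are not printed, because no file used here holds them.

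Depth set much of the precision. Total miRNA counts ran from 17151 to 436475 in EV-recipient synoviocytes and from 4891 to 444408 in EV-recipient chondrocytes, and the library with no labelled group held 20330. The shallowest library, EV-recipient chondrocyte replicate 1 with 4891 counts, stood apart. A count of 0 there allows up to 3 counts, or 613 RPM (reads for every 1000000 miRNA counts), against 6.75 RPM in the deepest. Each library was a separate recipient horse, but all libraries of a group shared a pool of EVs. The p-values therefore measure the spread between libraries of different recipient horses, with technical and counting error in it. They measure no spread between EV pools. Recipient cell type, EV source, EV dose and oxygen changed together and cannot be told apart. The paper reports that EV-recipient synoviocytes were given more EVs per volume of medium than EV-recipient chondrocytes, and yielded more labelled RNA. Intervals are Wilson intervals at 95% confidence on read counts, and leave out the spread between libraries. Reads were copied by PCR and the paper mentions no molecular identifiers, so they are not taken to count molecules one by one. The intervals may therefore be too narrow even for counting error. Of the markers of the cell types, miR-140-3p, a cartilage miRNA, averaged 27.2 ± 32.0 RPM (SD, n = 4) in EV-recipient synoviocytes and 1320 ± 1020 RPM (SD, n = 5) in EV-recipient chondrocytes. miR-140-5p averaged 49.3 ± 64.3 RPM (SD, n = 4) in EV-recipient synoviocytes and 936.9 ± 562 RPM (SD, n = 5) in EV-recipient chondrocytes. Both fell short of the abundance filter and were not tested. The leukocyte and erythroid miRNAs, 6 rows, summed to 55.0 to 17025 RPM in EV-recipient synoviocytes and 45.6 to 3679 RPM in EV-recipient chondrocytes, with no count of miR-150 in EV-recipient synoviocytes and none of miR-142-3p in EV-recipient chondrocytes. The 2 rows of endothelial miR-126 had no count in any EV-recipient chondrocyte library and reached at most 93.0 RPM in EV-recipient synoviocytes, and the 2 epithelial rows reached at most 1399 RPM in EV-recipient synoviocytes and 204 RPM in EV-recipient chondrocytes. The part of other cell types in the results below was not tested.

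All 5 miRNAs passed the abundance filter used by the study, at least 2045 RPM (10 counts in the shallowest library) in at least 2 labelled libraries, as did 49 miRNAs in all. eca-miR-199a-5p was the most abundant of them in every library. By mean RPM it ranked 21 of 239 in EV-recipient synoviocytes and 18 in EV-recipient chondrocytes. The 3p rows followed at 30 and 31 in EV-recipient synoviocytes and at 27 and 28 in EV-recipient chondrocytes. eca-miR-199b-5p ranked 33 in EV-recipient synoviocytes and 44 in EV-recipient chondrocytes. eca-miR-214 ranked 35 in EV-recipient synoviocytes and 40 in EV-recipient chondrocytes. With the 3p rows counted once, EV-recipient synoviocytes held 21766 ± 2281 RPM of these miRNAs together (SD, n = 4) and EV-recipient chondrocytes 28001 ± 5092 RPM (SD, n = 5), with overlapping ranges.

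The 3p rows of miR-199a and miR-199b held the same count in 7 of 10 libraries and differed by at most 1.69% in the others. The widest gap was 1181 against 1161 counts, in EV-recipient synoviocyte replicate 2. They are treated as a single observation, named miR-199-3p below and taken as the mean of the rows. Whether each read was entered in both rows or split between them is not given in the sources used here, so an arm ratio that uses miR-199-3p may be too high by up to a factor of 2, the same in every library. The only other pair of rows this close, among miRNAs with 100 or more summed counts and at a tolerance of 10% in every library, was eca-miR-103 and eca-miR-107a.

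Every EV-recipient synoviocyte library held less eca-miR-199a-5p than any EV-recipient chondrocyte library. It stood at 9015, 9985, 10072 and 10378 RPM in EV-recipient synoviocytes, from 3935, 1920, 325 and 178 counts. In EV-recipient chondrocytes it stood at 23912, 11001, 15294, 16202 and 15404 RPM, from 117, 4889, 607, 4614 and 1519 counts. The groups did not overlap, although EV-recipient chondrocyte replicate 2, the deepest of its group, lay close above the highest EV-recipient synoviocyte library. The highest EV-recipient chondrocyte value, 23912 RPM, came from the shallowest library, with an interval of 19998 to 28592 RPM. Means were 9863 ± 589 RPM (SD, n = 4) in EV-recipient synoviocytes and 16363 ± 4686 RPM (SD, n = 5) in EV-recipient chondrocytes. The coefficient of variation in EV-recipient synoviocytes, 5.98%, was the fourth lowest of the 49 tested miRNAs, whose median was 29.2%. In EV-recipient chondrocytes it was 28.6%, against a median of 38.1%. The log2 fold change of EV-recipient synoviocytes over EV-recipient chondrocytes was -0.55, with a standard error of 0.24. In edgeR's quasi-likelihood fit the unadjusted p was 0.0370 and the Benjamini-Hochberg adjusted p over the 49 miRNAs was 0.202, so it passed the threshold of 0.05 before and not after adjustment. The unadjusted p was under 0.05 in 4 of the 9 fits that left out a library and ran from 0.0124 to 0.0998 over them, with edgeR's adjusted p from 0.102 to 0.416. The fold change was smallest in size, -0.46, without EV-recipient chondrocyte replicate 1.

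The 3p arm lay in the same direction with overlapping groups. eca-miR-199a-3p stood at 3629, 6142, 4432 and 3673 RPM in EV-recipient synoviocytes and at 11241, 5049, 6551, 5559 and 6764 RPM in EV-recipient chondrocytes. Only EV-recipient synoviocyte replicate 2, at 6142 RPM, reached into the EV-recipient chondrocyte range. EV-recipient chondrocyte replicate 1 was again the highest of its group, with 55 counts. Means were 4469 ± 1175 RPM (SD, n = 4) in EV-recipient synoviocytes and 7033 ± 2455 RPM (SD, n = 5) in EV-recipient chondrocytes. The log2 fold change was -0.49 for either row (standard error 0.29, edgeR adjusted p = 0.348), a difference within the spread between libraries.

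eca-miR-199b-5p, from the other miR-199 hairpin, had the higher mean in EV-recipient synoviocytes, with overlapping groups. It stood at 3537, 3630, 3192 and 5189 RPM in EV-recipient synoviocytes, from 1544, 698, 103 and 89 counts. In EV-recipient chondrocytes it stood at 0, 1836, 3024, 1535 and 3600 RPM, from 0, 816, 120, 437 and 355 counts. EV-recipient synoviocyte replicate 4 was the highest, and EV-recipient chondrocyte replicate 5 overlapped the EV-recipient synoviocytes. At the mean of the other EV-recipient chondrocytes, 2499 ± 975.9 RPM (SD, n = 4), replicate 1 would have held 12.2 counts in place of 0. Means were 3887 ± 888 RPM (SD, n = 4) in EV-recipient synoviocytes and 1999 ± 1401 RPM (SD, n = 5) in EV-recipient chondrocytes. The log2 fold change was 0.98 (standard error 0.59, edgeR adjusted p = 0.348), which did not pass. It was 0.74 without EV-recipient chondrocyte replicate 1.

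eca-miR-214 showed no difference beyond its spread. It stood at 2234, 3542, 4493 and 3965 RPM in EV-recipient synoviocytes and at 0, 2986, 2167, 4765 and 3134 RPM in EV-recipient chondrocytes. The lowest value with counts and the highest value both lay in EV-recipient chondrocytes, so their range enclosed that of the EV-recipient synoviocytes. The 0 in EV-recipient chondrocyte replicate 1 compares with 16.0 counts at the mean of the other EV-recipient chondrocytes. Means were 3558 ± 965 RPM (SD, n = 4) in EV-recipient synoviocytes and 2610 ± 1737 RPM (SD, n = 5) in EV-recipient chondrocytes. The log2 fold change was 0.48 (standard error 0.59, edgeR adjusted p = 0.648), and 0.19 without EV-recipient chondrocyte replicate 1.

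**Figure D1:**
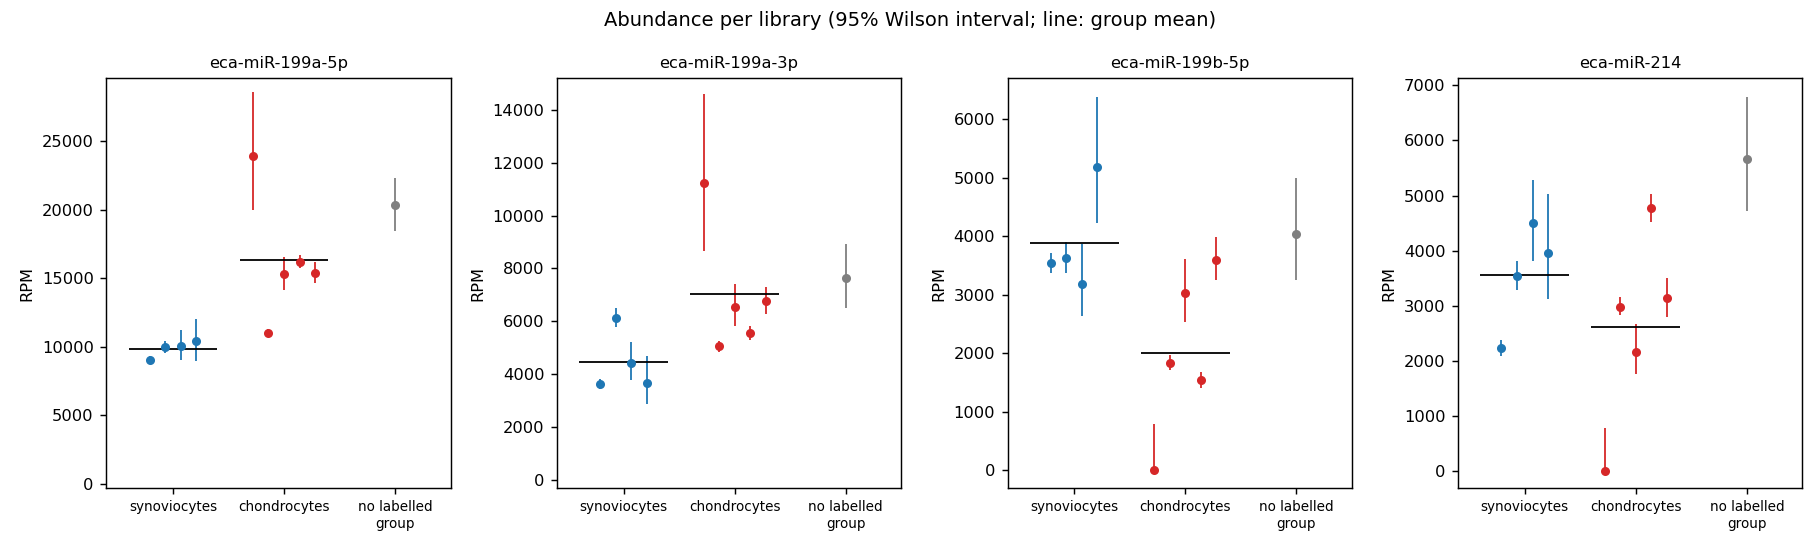
RPM of each miRNA (vertical axis) in every library, with EV-recipient synoviocytes, EV-recipient chondrocytes and the library with no labelled group from left to right. Points are libraries in replicate order, bars are 95% Wilson intervals and black lines are group means. The 4 EV-recipient synoviocytes lie between 9015 and 10378 RPM for eca-miR-199a-5p, below all EV-recipient chondrocytes, and EV-recipient chondrocyte replicate 1 is at 0 for eca-miR-199b-5p and eca-miR-214.

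At an adjusted p under 0.05, 0 of the 5 miRNAs were called, while 8.16% of the 49 tested miRNAs were. At an unadjusted p under 0.05, 0 of 5 were higher and 1 of 5, eca-miR-199a-5p, was lower in EV-recipient synoviocytes, against 8.16% higher and 10.2% lower among the 49. DESeq2's Wald test and limma on log2(RPM + 1) also called 0 of the 5 at an adjusted p under 0.05, and each had 1, eca-miR-199a-5p, at an unadjusted p under 0.05. Its unadjusted p stayed under 0.05 in 7 of 11 alternatives that kept all 9 libraries. In the other 4, all fitted with edgeR, it was 0.0567 with DESeq2 size factors, 0.1004 with no filter on low counts, 0.101 with the replicate block and 0.768 with spike-in counts as library size. RPM of the groups did not overlap in the lower direction for 1 of 5, against 10.2% of the 49. With the 3p rows merged, the median log2 fold change was -0.01 over the 4 separate observations, of which 2 were negative and 2 positive, and 0.08 over the 48 rows then tested. eca-miR-21, the most abundant miRNA, averaged 326574 ± 80420.5 RPM (SD, n = 4) in EV-recipient synoviocytes and 216272 ± 43640 RPM (SD, n = 5) in EV-recipient chondrocytes. A larger share for it leaves a smaller share of RPM for all others, and its part in the lower RPM of eca-miR-199a-5p was not tested. Scaling by library size alone, in place of TMM factors, moved the median of the 49 miRNAs by -0.13 on the log2 scale. Set against the median of the 49 miRNAs, the log2 fold change of eca-miR-199a-5p was -0.61 with TMM and -0.65 with library size alone. That of eca-miR-199b-5p was 0.92 with TMM and 0.94 with library size alone. With spike-in counts as library size, which moved the median by -0.19, eca-miR-199a-5p was at -0.33 and eca-miR-199b-5p at 1.04 against the median. The standard errors were then 1.57 and 1.71, and the direction of eca-miR-214 turned, with a log2 fold change of -0.30.

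**Figure D2:**
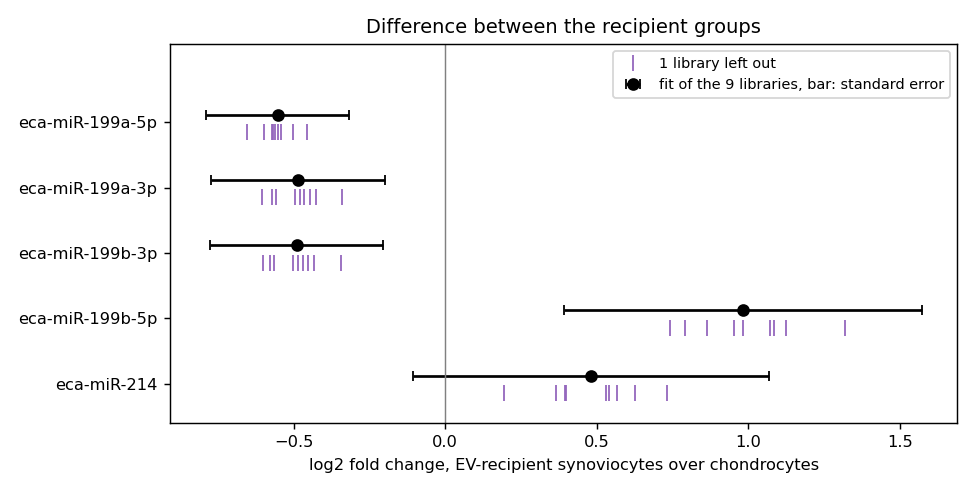
log2 fold change of EV-recipient synoviocytes over EV-recipient chondrocytes (horizontal axis) for each row, from edgeR. Black points are the fit of the 9 labelled libraries with their standard errors, and purple ticks are fits that left out 1 library. The miR-199a-5p and 3p rows lie below 0 and the miR-199b-5p and miR-214 rows above 0 in all of these fits, and the widest bars belong to the rows with a count of 0 in EV-recipient chondrocyte replicate 1.

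Ratios of counts within a library need no scaling between libraries, and 5 were computed. They are given per library from the counts as they are, while log2 ratios have 0.5 counts added to both terms. The arm ratio of miR-199, both 5p rows over miR-199-3p, was 3.45, 2.24, 2.99 and 4.24 in EV-recipient synoviocytes. It was 2.13, 2.54, 2.80, 3.20 and 2.81 in EV-recipient chondrocytes. The 5p arm was thus the larger in every library, with 69.1 to 80.9% of the miR-199 counts in EV-recipient synoviocytes and 68.0 to 76.2% in EV-recipient chondrocytes. The log2 ratio averaged 1.65 ± 0.38 (SD, n = 4) in EV-recipient synoviocytes and 1.42 ± 0.22 (SD, n = 5) in EV-recipient chondrocytes, and the groups overlapped (exact permutation test, two-sided, p = 0.278, adjusted over the 5 ratios 0.347). If reads were split between the 3p rows, the ratios would be smaller by a factor of 2 and the log2 difference between the groups, 0.23, would be nearly unchanged.

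For the miR-199a hairpin alone, eca-miR-199a-5p over miR-199-3p was 2.48, 1.64, 2.27 and 2.83 in EV-recipient synoviocytes and 2.13, 2.18, 2.33, 2.92 and 2.28 in EV-recipient chondrocytes. The log2 difference was -0.06 (exact permutation test, two-sided, p = 0.794), smaller than the spread within either group, and its sign turned without EV-recipient synoviocyte replicate 2 or without EV-recipient chondrocyte replicate 4. Since miR-199-3p can come from both hairpins, this ratio mixes them.

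The proportion of counts in the 5p rows of the paralogues differed between the libraries of the groups, but did not pass the threshold after adjustment. Mapping allowed mismatches and the 5p arms are closely similar, so some reads may have been entered in the other row, which was not tested. eca-miR-199b-5p made up 28.2, 26.7, 24.1 and 33.3% of the counts of both 5p rows in EV-recipient synoviocytes. In EV-recipient chondrocytes its share was 0, 14.3, 16.5, 8.65 and 18.9%. The groups did not overlap, and the intervals of the nearest libraries, 20.3 to 28.3% in EV-recipient synoviocyte replicate 3 and 17.2 to 20.8% in EV-recipient chondrocyte replicate 5, overlapped only between 20.3 and 20.8%. The 0 of 117 counts in EV-recipient chondrocyte replicate 1 allows a share of up to 2.56% at the limit of 3 counts. The upper end of its Wilson interval was 3.18%. Both lie below the other shares of its group, but reads do not count molecules one by one. eca-miR-214 and other miRNAs also had a count of 0 in this library, so no lower share is concluded for it. The log2 ratio of miR-199b-5p over miR-199a-5p averaged -1.36 ± 0.28 (SD, n = 4) in EV-recipient synoviocytes and -3.66 ± 2.41 (SD, n = 5) in EV-recipient chondrocytes (exact permutation test, two-sided, p = 0.0317, adjusted over the 5 ratios 0.0794). It thus passed before and not after adjustment. Ratios of 16.3% of all pairs of tested miRNAs, with the 3p rows taken once, did not overlap between the groups either. The difference of 2.29 leans on replicate 1, whose value is set by the 0.5 counts added. Without that library the log2 difference was 1.24, or 2.36-fold (p = 0.0286 in the same exact permutation test, which 4 against 4 libraries cannot take lower). With counts summed over each group the ratio was 2.60-fold higher in EV-recipient synoviocytes. When any 1 of the EV-recipient synoviocytes was left out the exact permutation p lay between 0.0893 and 0.143, with differences of 2.17 to 2.39.

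**Figure D3:**
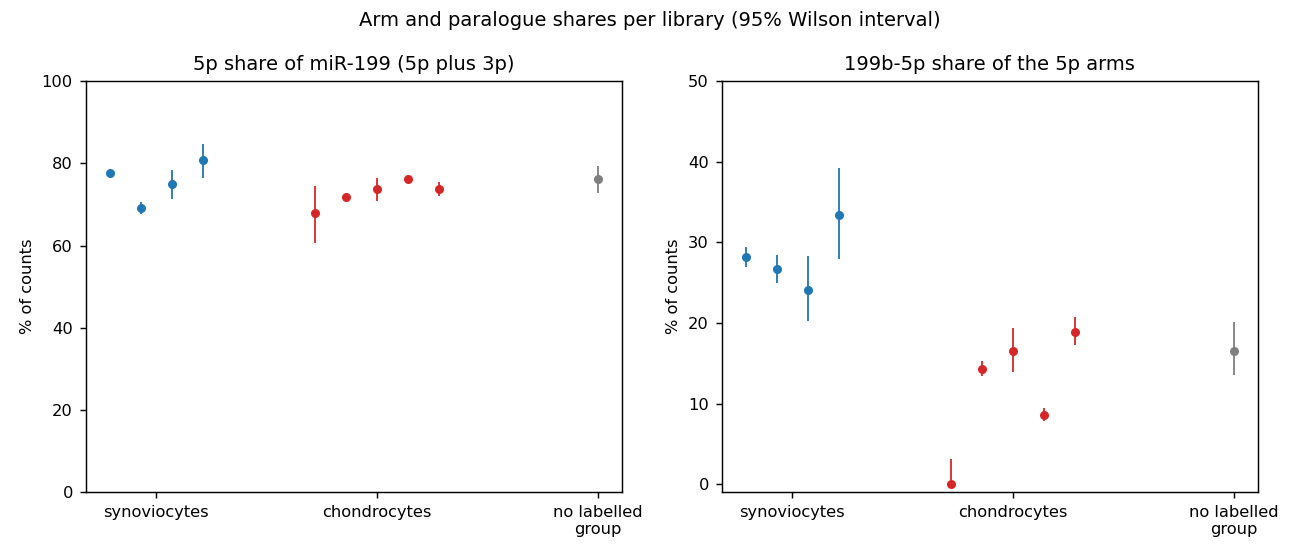
Share of the 5p arm in the miR-199 counts (left, miR-199-3p rows counted once) and share of eca-miR-199b-5p in the counts of both 5p rows (right), in percent of counts for each library. Points are libraries in replicate order and bars are 95% Wilson intervals. The 5p share overlaps between the groups, while the miR-199b-5p share is 24.1 to 33.3% in EV-recipient synoviocytes and 0 to 18.9% in EV-recipient chondrocytes.

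eca-miR-199b-5p over miR-199-3p followed the same order, at 0.972, 0.596, 0.720 and 1.41 in EV-recipient synoviocytes and 0, 0.364, 0.462, 0.277 and 0.532 in EV-recipient chondrocytes. The groups did not overlap here either (log2 difference 2.23, exact permutation test, two-sided, p = 0.0317, adjusted over the 5 ratios 0.0794). Without EV-recipient chondrocyte replicate 1 the log2 difference was 1.14 (exact permutation p = 0.0286), and without any 1 of the EV-recipient synoviocytes the exact permutation p lay between 0.125 and 0.179. eca-miR-214 over miR-199-3p was 0.614, 0.582, 1.01 and 1.08 in EV-recipient synoviocytes and 0, 0.591, 0.331, 0.860 and 0.463 in EV-recipient chondrocytes. These overlapped (log2 difference 1.75, exact permutation test, two-sided, p = 0.167). Without EV-recipient chondrocyte replicate 1 that difference was 0.58. Of the 5 ratios, 2 did not overlap between the groups, and they share the miR-199b-5p term. Among all pairs of tested miRNAs, with the 3p rows taken once, 16.3% of ratios did not overlap.

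**Figure D4:**
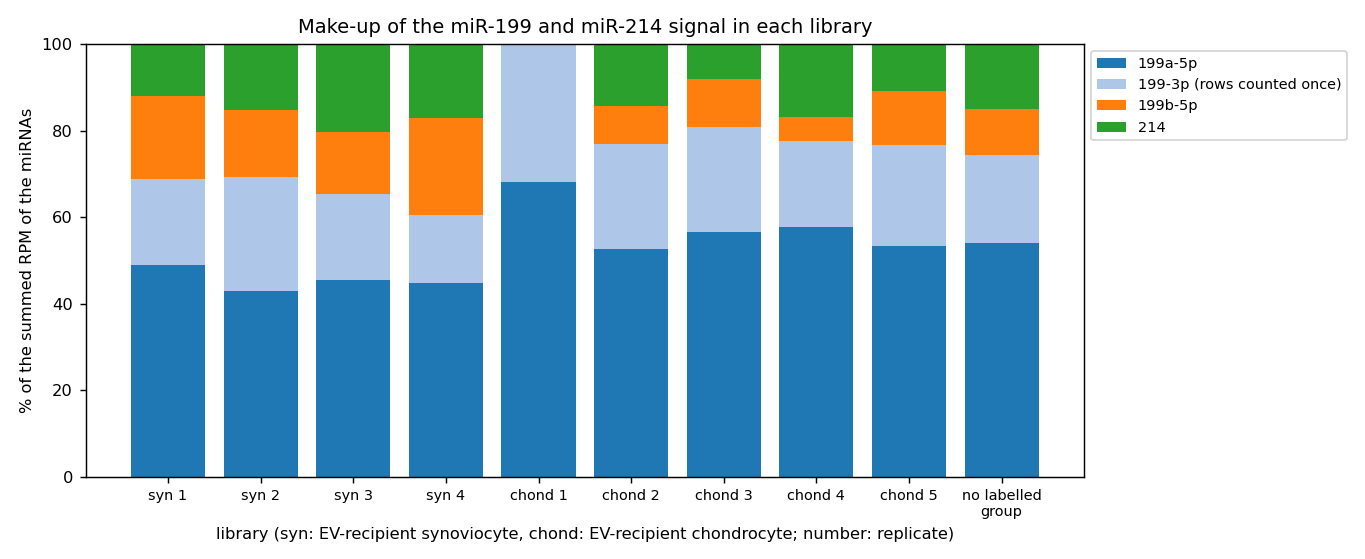
Share of each miRNA in their summed RPM (vertical axis, percent, miR-199-3p rows counted once) for every library. Bars are libraries, EV-recipient synoviocytes first, and colours are miRNAs. eca-miR-199a-5p takes 43.0 to 48.9% in EV-recipient synoviocytes and 52.7 to 68.0% in EV-recipient chondrocytes, and eca-miR-199b-5p takes 14.4 to 22.4% in EV-recipient synoviocytes and 0 to 12.5% in EV-recipient chondrocytes.

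Likeness between miRNAs was measured as the mean absolute difference of log2(RPM + 10), centred for each miRNA, over the 9 labelled libraries, which share their depths. The closest rows to eca-miR-199a-5p among the 49 were the 3p rows, at 0.16 and 0.17 log2 units. The median over the tested miRNAs was 0.67. About as close, at 0.17, was eca-miR-22, a widely expressed miRNA that is also in the fibroblast and mesenchymal list below. The closest to the 3p rows, apart from each other, were eca-miR-199a-5p, eca-miR-22 at 0.18 and eca-miR-16, a ubiquitous miRNA that slows cell division, at 0.23. eca-miR-199b-5p was closest to eca-miR-107b and eca-miR-99b at 0.47 and to eca-miR-214 at 0.55. eca-miR-214 was closest to eca-miR-99b and eca-miR-107b at 0.31 and 0.32 and to eca-let-7c at 0.33. All of these neighbours of eca-miR-199b-5p and eca-miR-214 also had 0 counts in EV-recipient chondrocyte replicate 1. Without that library eca-miR-214 lay 0.61 from eca-miR-199b-5p, where the median distance of eca-miR-199b-5p was 0.62. eca-miR-214 then lay 0.45 from eca-miR-199a-3p, farther than the median distance of eca-miR-199a-3p, 0.42. eca-miR-199a-5p then still lay 0.17 from eca-miR-199a-3p.

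Other miRNAs known from fibroblasts and mesenchymal cells were taken from a list of 13 rows in the table, of which 9 passed the filter. In EV-recipient synoviocytes 1 of the 9 was higher and 1 was lower at an edgeR adjusted p under 0.05, against 2.04% higher and 6.12% lower among the 49. eca-miR-143, known from smooth muscle and mesenchymal cells, was the one that rose, with a log2 fold change of 2.62 (standard error 0.66, edgeR adjusted p = 0.0284). It averaged 38194 ± 27081 RPM (SD, n = 4) in EV-recipient synoviocytes and 7294 ± 6192 RPM (SD, n = 5) in EV-recipient chondrocytes. eca-miR-31 fell by 4.88 on the log2 scale (standard error 1.3, edgeR adjusted p = 0.0318), with counts in 5 of the 9 libraries. The 3 most abundant rows did not pass after adjustment, with log2 fold changes of 0.76 for eca-miR-21, -0.57 for eca-miR-221 and -0.25 for eca-miR-222. Before adjustment eca-miR-21 had an edgeR p of 0.0124. At an unadjusted p under 0.05, 2 of the 9 were higher and 1 was lower, against 8.16% higher and 10.2% lower among the 49. The median log2 fold change of the 9 was -0.25, beside 0.06 over the 49 tested miRNAs.

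In the library with no labelled group, marked as the control that had received unlabelled EVs, every one of the miRNAs was counted. eca-miR-199a-5p had 413 counts, or 20315 RPM with an interval of 18464 to 22347 RPM. The 3p rows had 155 counts each, or 7624 RPM. eca-miR-199b-5p had 82 counts, or 4033 RPM, and eca-miR-214 had 115 counts, or 5657 RPM. The miR-199b-5p share of the 5p counts was 16.6% (interval 13.6 to 20.1%), and the 5p share of miR-199 was 76.2%. Although the library is titled as a synoviocyte, its miR-199b-5p share lay within the range of EV-recipient chondrocytes, 0 to 18.9%. It lay below that of EV-recipient synoviocytes, 24.1 to 33.3%, and the cause was not tested. The 5p share of miR-199 lay within the ranges of both groups. All 5 rows were above the limit of 148 RPM that a count of 0 allows in that library, and this background has no replicate. eca-miR-214 was higher there than in any of the 9 labelled libraries, and eca-miR-199a-5p and the 3p rows were higher than in all but EV-recipient chondrocyte replicate 1. RPM compares only the make-up of the miRNA reads. The miRNA count for each spike-in count was 0.0634 to 2.49 in EV-recipient synoviocytes, 0.0134 to 2.35 in EV-recipient chondrocytes and 0.0786 in the library with no labelled group. That 0.0786 lay above EV-recipient synoviocyte replicate 4, at 0.0634, and EV-recipient chondrocyte replicate 1, at 0.0134. It lay below all other labelled libraries.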

How the data were processed

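Small RNA was sequenced from 5-EU-captured RNA of 10 recipient cultures. The authors processed reads with the miND pipeline: FastQC 0.11.9, MultiQC 1.10, cutadapt 3.3, Bowtie 1.3.0 and miRDeep2, against the horse genome and then horse miRBase entries, with mismatches allowed, so near-identical miRNAs can share reads. The authors deposited raw counts of 239 miRNAs and 8 spike-in calibrators. The authors deposited RPM as well, which matched count over miRNA total, spike-ins left out, within 0.041% for counts of 10 or more. Every column was mapped to a sample. The library titled as the remaining synoviocyte stayed out of all tests.

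Counts of the 9 labelled libraries were fitted over all 49 miRNAs past the filter with edgeR 4.0.16 in R 4.3.3 (TMM, library sizes over all miRNAs, quasi-likelihood, Benjamini-Hochberg). The standard error is the fold change over the square root of F. The fit was tested on simulated data. Ratios were compared with exact permutation tests over 126 splits (Python 3.11.15). Alternatives used DESeq2 1.42.0, limma 3.58.1, other scalings and filters, a replicate block and each library left out. The members, lists and tests were chosen with earlier results of these data known. The rule named the 5 rows, the 3 closest miRNAs to each by profile, and from the fibroblast list those called and the 3 most abundant. The lists were fibroblast and mesenchymal, cartilage, leukocyte and erythroid, endothelial and epithelial miRNAs.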

Additional observations from a re-analysis of the deposited data

Results flagged for a closer look

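Of 20 sets of values searched for a library far from the others of its group, 5 held one, and all 5 were EV-recipient chondrocyte replicate 1, the shallowest library with 4891 miRNA counts. Chance gives about 1 in 20 for separate sets, but these 5 are not separate, since the 3p rows are a single observation and the 3 ratios rest on counts of 0 in that library, so no excess over chance is read from them. It was the highest of its group for both 3p rows, at 11241 RPM. It was the lowest for the log2 ratio of miR-199b-5p over miR-199-3p (-6.79), of miR-214 over miR-199-3p (-6.79) and of miR-199b-5p over miR-199a-5p (-7.88), which rest on 0 counts in the upper term and on the 0.5 counts added.

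The library with no labelled group, which no comparison used, held eca-miR-199a-5p at 20315 RPM, both 3p rows of miR-199 at 7624 RPM, eca-miR-199b-5p at 4033 RPM and eca-miR-214 at 5657 RPM, all above the limit that a count of 0 allows there.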

How the results depend on the processing

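None of the 5 rows reached an adjusted p under 0.05 in any of the 20 alternative fits, and all kept their direction in them except eca-miR-214, at -0.30 with spike-in counts as library size. With 1 library left out the log2 fold changes ran from -0.66 to -0.46 for eca-miR-199a-5p, 0.74 to 1.32 for eca-miR-199b-5p, -0.60 to -0.34 for either 3p row and 0.19 to 0.73 for eca-miR-214. The log2 fold change of eca-miR-199b-5p was 2.94 when limma used a pseudocount of 1 RPM and 2.27 at 10 RPM. That of eca-miR-214 was 2.46 at 1 RPM and 1.80 at 10 RPM. Both rows had a count of 0 in EV-recipient chondrocyte replicate 1, where the pseudocount alone sets the value. The part of that library in the shift was not tested separately. Over all tested miRNAs, 4 were called at an adjusted p under 0.05 and 9 at an unadjusted p under 0.05. These became 0 and 0 with spike-in library sizes and 14 and 44 of 239 with no filter. limma called 1 with either pseudocount at an adjusted p, and edgeR's filterByExpr gave 17 of 100 at an unadjusted p. With 1 library left out the calls ran from 1 to 8 adjusted and from 7 to 18 unadjusted, both highest without EV-recipient chondrocyte replicate 1, where 81 miRNAs passed the filter. The adjusted count was 1 without EV-recipient chondrocyte replicate 2, 3, 4 or 5 or EV-recipient synoviocyte replicate 3 and 2 without EV-recipient synoviocyte replicate 2. The unadjusted count was 16 without EV-recipient synoviocyte replicate 4.

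The miR-199a-5p over miR-199-3p difference turned to 0.095 and 0.020 without EV-recipient synoviocyte replicate 2 and EV-recipient chondrocyte replicate 4 (range -0.16 to 0.095). The miR-214 over miR-199-3p difference was -0.024 with counts summed over each group (range with 1 library left out 0.58 to 2.22). The miR-199b-5p ratios ran from 1.14 to 2.61 over miR-199-3p and from 1.24 to 2.68 over miR-199a-5p, and the arm ratio from 0.09 to 0.40. On ranks, an alternative chosen after seeing the data, the miR-199b-5p ratios had exact permutation p of 0.0159 each.

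Whether replicate numbers pair the horses is not given in the sources used here, and the library names share no number between the groups. Same-numbered libraries deviated with correlations of -0.41 to 0.12 and differently numbered ones with -0.21 to 0.26. Such weak correlations cannot decide whether horses were paired. With the replicate block 1 miRNA was called at an adjusted p, the log2 fold changes of eca-miR-199a-5p and eca-miR-199b-5p were -0.51 and 1.65, and the differences of the miR-199b-5p ratios were 2.61 over miR-199-3p and 2.68 over miR-199a-5p (exact sign-flip permutation p = 0.125 for each, the smallest that 4 pairs allow). Depth limits statements on eca-miR-199b-5p and eca-miR-214 in EV-recipient chondrocyte replicate 1 to an upper bound of 613 RPM.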
